A study of Mus musculus with 4 samples.

Results

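Lymphatic endothelial cells of the mouse lung were picked out of single-cell RNA libraries by their marker transcripts. The 6 markers were Ccl21a, a chemokine that guides dendritic cells and T cells into lymphatic vessels; Mmrn1, a secreted multimerin; Reln, the secreted glycoprotein reelin; Prox1, the transcription factor that sets lymphatic identity; Flt4, the receptor for the growth factor VEGF-C, also called VEGFR3; and Fxyd6, a small regulator of the sodium pump. Cells were chosen by these measured transcripts alone. A cell entered when at least 2 of the 6 had a transcript, Ccl21a or Mmrn1 was one of them, and Ptprc, the leukocyte antigen CD45, had none. Transcripts were counted as unique molecular identifiers (UMIs), and cells with fewer than 500 UMIs or more than 15% mitochondrial UMIs had been left out. The gate held 63 of the 1283 kept lung cells and of the 3256 kept cells of the whole series. It held 44 of 775 cells of the wild-type lung (5.68%, exact 95% interval 4.16 to 7.55) and 19 of 508 cells of the knockout lung (3.74%, 2.27 to 5.78). The 2 intervals overlapped.

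The libraries came from female C57/B6J mice described as Apoe knockout, carrying an endothelial lineage trace and fed Western diet for 5 weeks. Mice labelled Oct4 wild type (2 animals) were compared with mice in which Oct4, the pluripotency factor Pou5f1, was deleted in endothelial cells (3 animals). eYFP-positive cells of the aorta and the left lung lobe were sorted, with littermates negative for Cdh5 setting the gate, and digestion took place in 1 µg/mL actinomycin D, which blocks transcription. Each combination of tissue and genotype was 1 droplet library, so animals within a library could not be told apart. A lymphatic cell was measured only if it had been marked by the trace, and the share of cells here need not be the share in the tissue. No difference between genotypes has a replicate, and every interval covers counting error only.

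Lymphatic vessels drain fluid, proteins and immune cells from the lung, mostly along airways, veins and the pleura, and are absent from the alveolar wall. Their endothelium descends largely from venous endothelium in which Prox1 is switched on with Sox18 and Nr2f2. VEGF-C acting through Flt4 and its partner Nrp2 keeps it growing and alive.

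The main chemokine transcript belongs to a family of near-identical genes, which limits how far its counts can be read. Ccl21a lies on chromosome 4 from 42772860 to 42773993 (mm10, GENCODE M21, minus strand). Of the 50-base stretches in the transcripts of Gm13304 and Gm21541, which lie on the same chromosome, 73.5% and 71.6% also occurred in Ccl21a. The RefSeq promoter windows, from 250 bases before to 50 after the annotated start, are shown for Ccl21a and for Gm13304 because reads from the 2 genes are hard to separate and both were found in the same cells. Capitals mark the 3 of 299 aligned bases at which Gm13304 differed from Ccl21a, and the window of Gm10591 was identical to that of Gm13304.
Ccl21a, chr4:42773942-42774241, minus strand, GRCm38.p6: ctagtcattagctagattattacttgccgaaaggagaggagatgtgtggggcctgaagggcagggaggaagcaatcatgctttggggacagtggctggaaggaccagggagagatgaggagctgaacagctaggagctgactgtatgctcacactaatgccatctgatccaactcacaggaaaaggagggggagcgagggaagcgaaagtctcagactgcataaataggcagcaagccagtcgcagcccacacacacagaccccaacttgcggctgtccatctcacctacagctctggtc
Gm13304, chr4:42114537-42114836, plus strand, GRCm38.p6: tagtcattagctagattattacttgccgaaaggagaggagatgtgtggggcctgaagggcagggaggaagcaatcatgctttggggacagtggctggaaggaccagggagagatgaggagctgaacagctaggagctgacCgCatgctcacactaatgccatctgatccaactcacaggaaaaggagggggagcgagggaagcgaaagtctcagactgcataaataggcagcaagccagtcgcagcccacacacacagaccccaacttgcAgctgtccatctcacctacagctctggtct

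Gated wild-type and knockout lung cells held 94 and 48 UMIs assigned to Gm21541, 41 and 30 to Ccl21b, and 24 and 10 to Gm13304, while the other kept lung cells held none of the 3. These counts followed Ccl21a and cannot be told apart from reads of Ccl21a placed on a copy, so they are given here only. The names of the copies differ between the annotations of the lung and aortic matrices, and they were not compared between tissues.

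Ccl21a dominated the gated cells. It made up 4209 UMIs in 42 of 44 wild-type cells and 2161 UMIs in all 19 knockout cells. As a share of all UMIs of a cell it ranged from 0 to 13.4% with a median of 4.08% in wild-type cells, and from 0.0319% to 10.7% with a median of 4.82% in knockout cells. Scaled to counts per 1000000 UMIs of the summed cells (CPM), it stood at 38243 and 52439 CPM. The other kept lung cells held 11 UMIs in 11 of 731 wild-type and 10 UMIs in 10 of 489 knockout cells, never more than 1 per cell. Because Ccl21a, Mmrn1 and the other gate genes chose the cells, these values describe the gate and carry no test.

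The remaining gate genes were far less abundant. Mmrn1 had 335 UMIs in 38 wild-type and 148 UMIs in 17 knockout cells (3044 and 3591 CPM), Fxyd6 148 in 38 and 49 in 15, and Reln 105 in 35 and 33 in 12. Prox1 was seen in 20 and 8 cells and Flt4 in 28 and 7. A transcription factor seen in 20 of 44 cells at this depth is not shown to be missing from the rest. Gated cells had medians of 2259 and 1837 UMIs and of 1121.5 and 997 genes. The other lung cells had 1628 and 1731 UMIs and 925 and 957 genes. Flt4 also had 58 and 33 UMIs in other lung cells, whereas Prox1 was present in only 3 and 2 of those.

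Cells near the edge of the gate held few gate transcripts. In the wild-type lung 4 cells had 2 of the 6 genes, 3 had 3, 12 had 4, 14 had 5 and 11 had all 6. In the knockout lung 2 cells had 2 genes, 2 had 3, 7 had 4 and 8 had 5. All 6 lung cells with exactly 2 genes held 1 UMI of Ccl21a and none of Mmrn1, the level also seen in scattered cells outside the gate. In 5 of the 6 the second gene was Flt4. Outside the gate 2 wild-type and 2 knockout cells had 2 of the genes without Ccl21a or Mmrn1; 3 held Prox1 with Fxyd6, and 1 knockout cell held 2 UMIs of Flt4 and 14 of Fxyd6. No cell was turned away because of Ptprc.

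One of these edge cells stood apart and carried weight. A gated wild-type cell with 11680 UMIs, 10.6% of all UMIs of gated wild-type cells, held 1 UMI of Ccl21a and 5 of Fxyd6. It held transcripts of 8 of 9 fibroblast markers, among them 598 UMIs of the actin-severing protein Gsn and 126 of the proteoglycan Dcn. It had none of the endothelial genes Cdh5, Pecam1 and Cldn5. No other gated lung cell held more than 1 fibroblast marker. The results below are given with this cell, as the gate selects it, and without it where it matters.

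**Figure D1:**
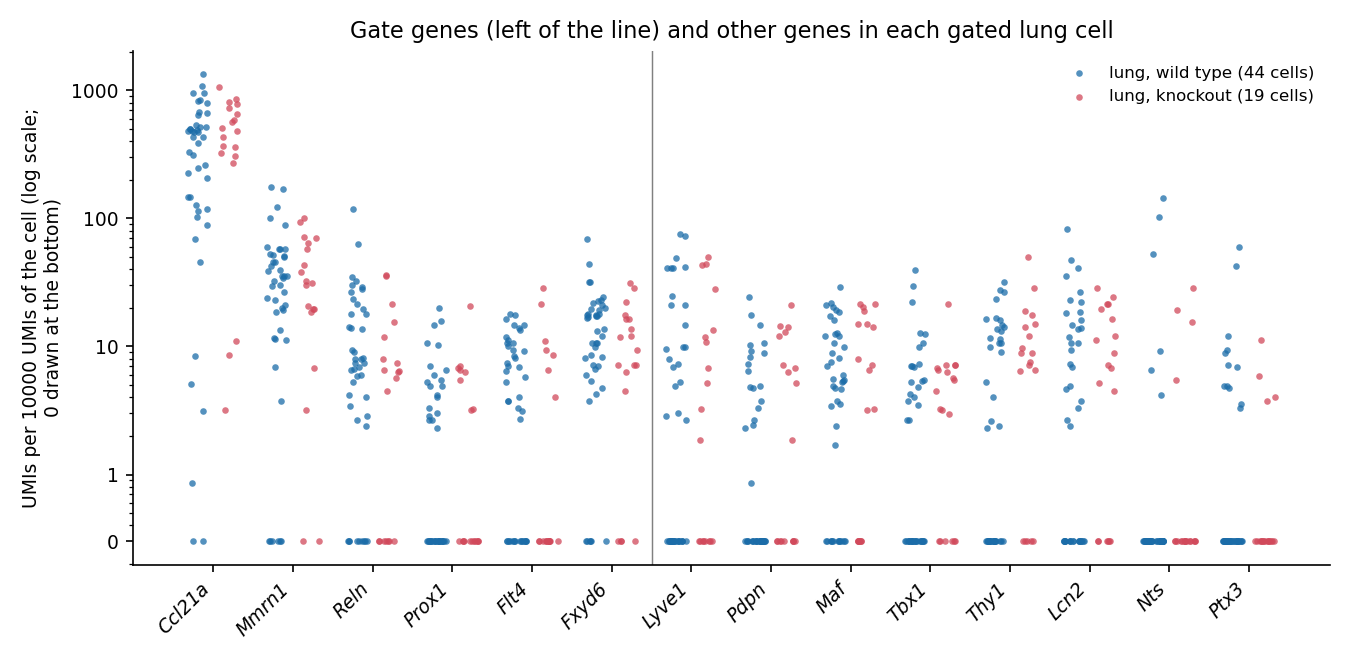
Each dot is 1 gated lung cell (44 wild type, 19 knockout). The vertical axis gives UMIs of the gene per 10000 UMIs of the cell on a log scale, with cells lacking the gene at the bottom. Ccl21a had a median of 4.08% of UMIs in wild-type and 4.82% in knockout cells, while Nts and Ptx3 were seen in 6 and 12 wild-type and 4 knockout cells each.

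Genes outside the gate were then described in the same cells. UMIs were summed over the gated cells and over all other kept cells of a library, and a gene was counted when its share was at least 2-fold apart in the same direction in both lung libraries. Of 3251 genes with enough UMIs, 239 were higher (7.35%) and 309 were lower (9.5%), together 16.9%. Without the cell with fibroblast markers the counts were 242 (7.43%) and 309 (9.48%) of 3259 genes. Of these, 221 and 293 were shared with the counts above. The gate and this contrast use the same cells, so the values are a description of size, with no test. A gene rare in the other cells had enough UMIs only when the gated cells held them, which favours higher genes in list counts. A ratio against a sum of 0 was taken against 3 UMIs and is a lower bound.

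Transcription factors of lymphatic identity were among the genes with the widest gaps. Of 9 that could be compared, 4 were higher and 1 was lower, where 7.35% and 9.5% of all compared genes were. Maf, a leucine zipper factor, stood at 636 and 777 CPM in gated wild-type and knockout cells, against 2.89 CPM and 0 in the other cells. That was 220-fold higher in the wild type (95% interval 82.2 to 830) and at least 259-fold higher in the knockout. Tbx1, a T-box factor needed for lymphatic vessels, stood at 336 and 413 CPM against 1.45 and 2 CPM, 233-fold (60 to 1992) and 206-fold (48.9 to 1840) higher. Nr2f2, the venous and lymphatic nuclear receptor also called COUP-TFII, was 19.7-fold (12.9 to 30.2) and 17.6-fold (8.66 to 35.2) higher. Nfatc1, which acts in valve formation, was 3.59-fold and 3.91-fold higher on 8 and 5 UMIs.

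Not all lymphatic factors set the cells apart. Gata2, required for lymphatic valves, was at 90.9 and 48.5 CPM in gated cells against 360 and 375 CPM in the others, with ratios of 0.252 and 0.129. Sox18, the activator of Prox1 in the embryo, had ratios of 0.829 (0.421 to 1.48) and 1.11 (0.471 to 2.23), so its level did not separate from that of the other cells at this depth. Foxc2, the valve factor, had 1 UMI in each library.

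Surface genes split into 2 groups. Of 10 compared, 6 were higher and 1 lower, where 7.35% and 9.5% of all compared genes were. Pdpn, the mucin-type glycoprotein podoplanin, had 29 UMIs in 19 wild-type and 22 in 10 knockout cells (263 and 534 CPM) and 3 and 0 UMIs in all other cells. Thy1, a GPI-anchored glycoprotein, stood at 600 and 1068 CPM against 0.723 and 6 CPM. Nrp2 was 21.7-fold (11.7 to 41.1) and 34.4-fold (15.5 to 78.8) higher, and the scavenger receptor Stab1 5.60-fold and 4.76-fold higher. The fatty acid translocase Cd36 was lower, with ratios of 0.169 and 0.146. Stab2, a hyaluronan scavenger receptor, was too rare to be counted, with 6 and 5 UMIs in gated cells and none in the other lung cells or in any gated or other aortic cell. Pdpn, Maf and Tbx1 took no part in the gate, but they had enough UMIs to be compared only through the gated cells. They also belong to lists chosen with earlier results known, so they describe the cells and are no independent support for the label.

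Lyve1, the hyaluronan receptor commonly used to mark lymphatic endothelium, was not confined to these cells in the lung. It had a UMI in 22 of 44 and 11 of 19 gated cells and also in 255 of 731 and 202 of 489 other lung cells. When each cell was thinned to 1000 UMIs, 34.2% and 44.4% of gated cells and 30.4% and 36.3% of the other cells kept a UMI. Its level was 1154 and 922 CPM in gated cells against 571 and 631 CPM, ratios of 2.02 (1.66 to 2.44) and 1.46 (1.02 to 2.03). Of the 22 wild-type Lyve1 cells 20 also held Reln, as did 7 of the 11 knockout ones.

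Of 8 secreted products compared, 7 were higher and 1, Ecm1, was lower, where 7.35% and 9.5% of all compared genes were. Members such as Ptx3 could be compared only through their UMIs in gated cells, so the count is a description of the list. Fgl2, a fibrinogen-like protein of the immune system, stood at 1009 and 1238 CPM against 25.3 and 21 CPM, 39.9-fold (27.1 to 60.1) and 58.9-fold (34.8 to 103) higher. Ptx3, a pentraxin of innate immunity, had 43 UMIs in 12 wild-type and 8 in 4 knockout cells and none in the other 1220 lung cells. Nts, the neuropeptide neurotensin, was carried by 6 and 4 cells, with up to 39 UMIs in 1 wild-type cell. In the knockout lung 94 Nts UMIs also lay in 3 other cells, 92 of them in 1 cell. Timp3, an inhibitor of metalloproteinases, was 3.08-fold and 2.61-fold higher.

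Further genes led the ranking. Pgf, placental growth factor, a ligand of the VEGF receptor Flt1, had 21 and 14 UMIs in 10 and 7 gated cells and 0 and 1 UMI in all other lung cells. Lcn2, the iron-siderophore binder lipocalin 2, stood at 945 and 1019 CPM against 10.8 and 4 CPM. The membrane glycoprotein Gpm6a was 233-fold and 97.0-fold higher, and the death-associated kinase Dapk2 at least 79.6-fold in the wild type and 88.9-fold in the knockout. Itih5 of the secreted list, a hyaluronan-binding protein, the ribonuclease Rnase4, ceruloplasmin (Cp) and Ahnak2 were also among the 15 highest, with ratios between 29.1 and 81.7 in the 2 libraries together.

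**Figure D2:**
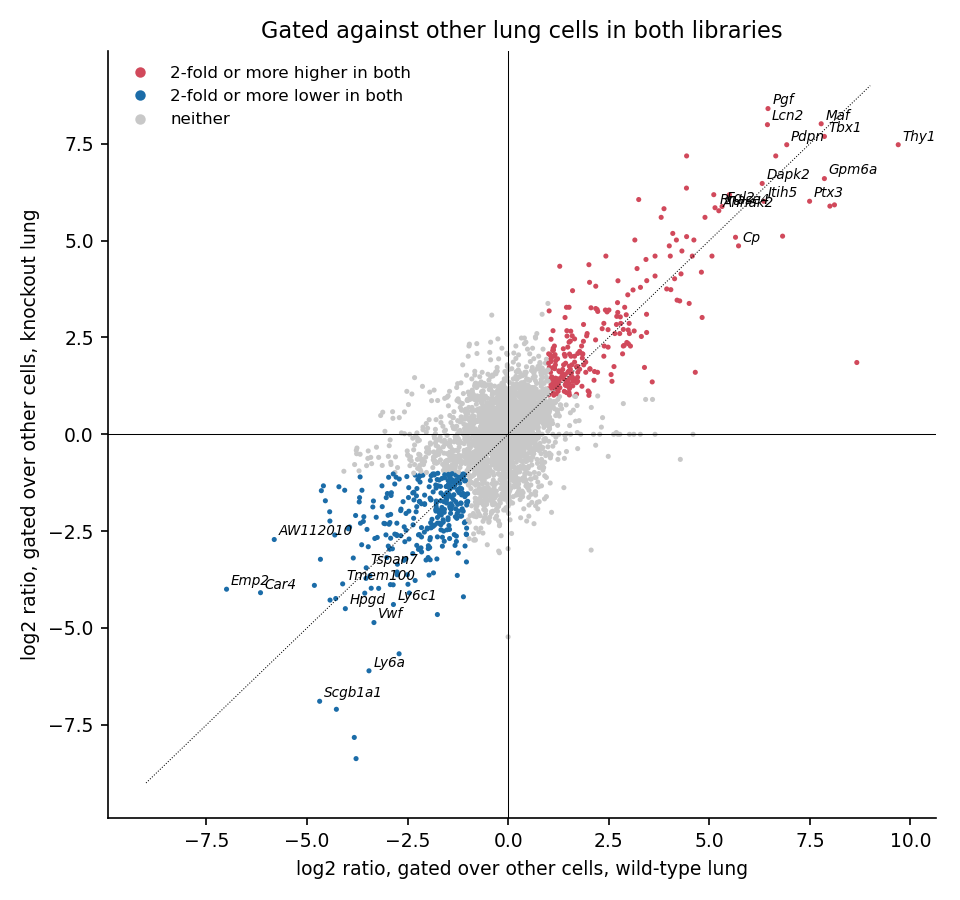
Log2 ratio of gated over other cells in the wild-type lung (horizontal) and the knockout lung (vertical), 1 dot per gene. Red and blue dots are the 239 and 309 genes at least 2-fold apart in both; sums of 0 were set to 3 UMIs, and genes at or under 3 UMIs in both sums of a library are not drawn. The labelled genes are among the 15 highest and 10 lowest by rank.

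Pathway genes around VEGF-C went both ways. Of 8 compared, Nrp2 and the phosphatase Ptpn14 were higher, and Calcrl and Ramp2, which together form the adrenomedullin receptor, were lower. Of all compared genes 7.35% were higher and 9.5% lower. The gate gene Flt4 belongs to the list but was left out of the 8. Ramp2 stood at 1199 and 704 CPM against 3822 and 3551 CPM. The VEGF receptor Kdr was at 436 and 291 CPM against 418 and 437 CPM, with intervals of the ratio that include 1. Neither gated sum held a UMI of the ligand gene Vegfc. Among angiopoietin and ephrin genes the ligand Angpt2 was 3.43-fold and 3.20-fold higher. The receptor Tek and the phosphatase Ptprb were lower, with ratios of 0.142 and 0.168 for Tek and of 0.132 and 0.239 for Ptprb, as was the ligand Efnb2.

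Blood endothelial genes stood low. Of 24 compared, 19 were lower and none was higher, where 9.5% of all compared genes were lower. Their summed level was 7142 and 5775 CPM in gated cells against 26643 and 27302 CPM in the others. The median log2 ratio was -2.13 and -2.32, against -0.07 and 0.02 over all compared genes. Without the cell with fibroblast markers 18 of the 24 were lower. The carbonic anhydrase Car4 and the membrane protein Emp2 had 2 and 1 UMIs in gated wild-type cells and 0 in knockout cells, against 1294 and 1162 CPM in other wild-type cells. The prostaglandin-degrading enzyme Hpgd had ratios of 0.0605 (0.0379 to 0.0918) and 0.0442 (0.0143 to 0.103). The arterial and capillary gene Tmem100, the tetraspanin Tspan7 and von Willebrand factor (Vwf) stood between 0.0344 and 0.0991 of the other cells' level. The lymphocyte antigens Ly6a and Ly6c1 were lower too, with ratios of 0.091 and 0.0145 for Ly6a and of 0.139 and 0.0476 for Ly6c1. AW112010 had 1 UMI over all gated cells, and the club cell secretoglobin Scgb1a1, whose UMIs lay in 9 of 19 gated and 254 of 489 other knockout cells, had ratios of 0.0389 and 0.00842. In each library 1 other cell held most Scgb1a1 UMIs, 927 of 970 and 28398 of 31670. Without it the ratios were 0.877 (0.174 to 2.74) and 0.0780 (0.0389 to 0.140), so in the wild type the gap rested on that cell.

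Genes shared by all endothelium were present but lower as a list, and not uniformly. Their summed level was 9667 and 7959 CPM in gated cells against 16889 and 16935 CPM in the others. The median log2 ratio was -0.76 and -0.59. Pecam1 was at 591 and 315 CPM against 1108 and 1134 CPM. Cldn5, the tight junction claudin, was at 3507 and 3155 CPM against 3734 and 4102 CPM. Ecscr, a surface sialomucin of endothelium, had ratios of 0.979 and 0.985. Of 15 genes of the pan-endothelial list 5 were lower, where 9.5% of all compared genes were. Among the 5 were the adherens junction cadherin Cdh5 (0.320 and 0.270) and the junction molecule Esam (0.0864 and 0.0759). The secreted Mmrn2 was the 1 member that was higher, 3.14-fold and 2.69-fold. The lineage trace is driven by Cdh5, and the part of its lower level in the share of gated cells was not tested.

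Counts for other programmes stand beside shares of 7.35% higher and 9.5% lower over all compared genes. Of 4 MHC class II genes compared, 3 were lower, with the invariant chain Cd74 at 36.3 and 97.1 CPM against 453 and 700 CPM. Of 15 genes of MHC class I and peptide loading, 4 were lower and none was higher. Of 13 interferon response genes 1 was higher, near the share over all genes, namely Ifi27l2a (6.64-fold and 15.6-fold), and 3 were lower. Of 8 genes of immune cell trafficking the adhesion molecules Icam2 (0.194 and 0.198) and Vcam1 were lower and none was higher. Of 17 fatty acid and lipid genes, 4 were lower, including Lpl and its anchor Gpihbp1, and none was higher. In the matrix list 6 of 15 were higher and 1 was lower: the laminin chain Lama4 was 14.7-fold and 56.6-fold higher, the fibril-binding Ltbp4 6.5-fold and 8.25-fold, while Col4a2 of the basement membrane was lower. Without the cell with fibroblast markers 6 of 14 matrix genes were higher and 3 lower, and the wild-type median log2 ratio went from 1.39 to -0.04. The connexin Gja1 was 21.7-fold and 146-fold higher, with 16 and 12 gated cells carrying it. Of 4 venous genes the serine protease Prss23 was higher, 4.39-fold and 2.63-fold, and Vwf, Vcam1 and Ptgs1 were lower. Of positional factors the homeobox gene Meox1 was higher, and Foxf1, a factor of lung mesenchyme and capillaries, was lower at 127 and 72.8 CPM against 921 and 1076 CPM. Without that cell the wild-type ratio of Foxf1 went from 0.138 to 0.0772. Fosb and Egr1, immediate early genes, were higher with the fibroblast-marker cell, but without it their wild-type ratios were 1.94 and 1.61.

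Transcripts that mark other cell types were added up for each list. Alveolar type 1 and type 2, mesothelial, dendritic, B and T cell markers had no UMI in either gated sum. In the other cells these lists stood between 1.45 and 50.6 CPM in the wild type and between 12.0 and 772 CPM in the knockout. As 3 UMIs are 27.3 and 72.8 CPM in the gated sums, most of these zeros could not show a gap. Macrophage genes came to 63.6 and 146 CPM against 514 and 600 CPM in the other cells, with 10 of 12 at 0 in each library. The airway list reached 36.3 and 291 CPM against 734 and 32482 CPM. The erythroid list reached 0 and 72.8 CPM against 1304 and 31836 CPM. Fibroblast genes came to 7351 CPM in gated wild-type cells, or 61.0 CPM without the 1 cell, and to 48.5 CPM in gated knockout cells. Smooth muscle genes came to 54.5 and 48.5 CPM, and neutrophil and platelet genes to 9.09 CPM each in the wild type and 0 in the knockout. In the knockout lung 1 other cell held 28398 UMIs of Scgb1a1, so the other-cell levels there shift with it.

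**Figure D3:**
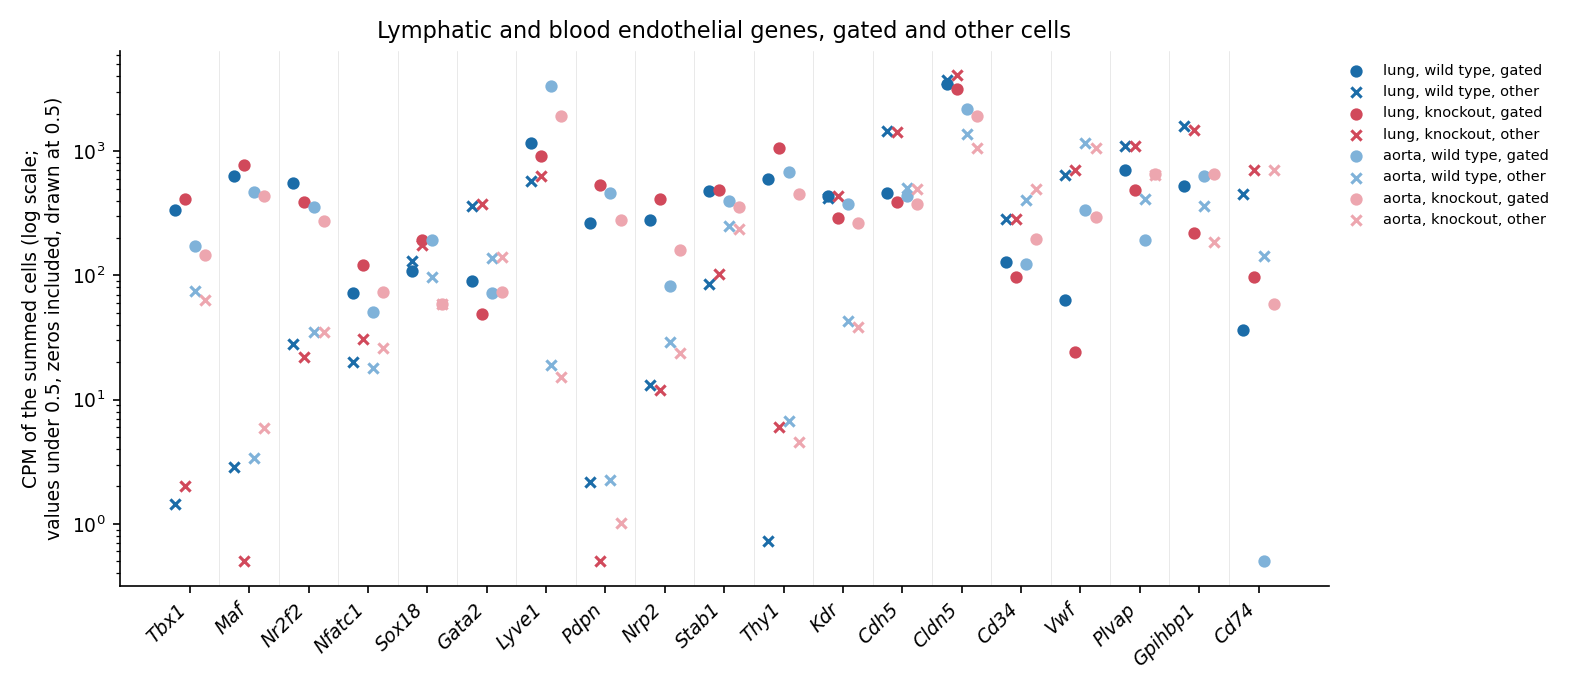
Level in CPM (log scale) of the summed gated cells (circles) and the other kept cells (crosses) in each of the 4 libraries, for lymphatic and blood endothelial genes. Tbx1, Maf, Pdpn and Thy1 lie far above the crosses in the lung, while Lyve1 crosses in the lung lie at 571 and 631 CPM and in the aorta at 19.1 and 15.3 CPM.

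Pou5f1 itself gave no check of the genotype. All barcodes of the wild-type lung held 2 UMIs of it, and those of the knockout lung 1. Gated cells held 1 and 0, too few to compare. Counts of this 3' method need not show which part of a gene was deleted.

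Between genotypes, gated knockout cells were set against gated wild-type cells, with 1 library and 19 or 44 cells a side and no test. Of 767 genes with at least 30 UMIs over both sums, 9 were at least 2-fold higher in the knockout (1.17%) and 67 lower (8.74%), together 9.91%. The same genes in the other lung cells gave 7 (0.913%) and 20 (2.61%). The wild-type and knockout sums held 110060 and 41210 UMIs in gated cells, but 1383857 and 999416 in the others. Counting error is wider in the smaller sums, so the rates of gated and other cells cannot be compared. Of the 76 genes, 18 had at least 50% of the UMIs of their higher library in 1 cell. Without the wild-type cell with fibroblast markers, 8 of 697 genes were higher (1.15%) and 43 lower (6.17%), together 7.32%. Of these 43 none had over 50% of its wild-type UMIs in 1 cell.

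That single cell held the whole bottom of the ranking. The 8 lowest genes by the rule were Gsn, Inmt, Dcn, Nbl1, Bgn, Mgp, Igfbp6 and Il6, and between 90.4% and 100% of their wild-type UMIs lay in it. Gsn had a level of 5470 CPM in wild-type and 48.5 CPM in knockout cells, on 602 and 2 UMIs. Its log2 ratio was 0.26 once the cell was left out, with too few UMIs remaining to read a direction. The genes that ranked lowest without the cell were named after their values were seen. Gpx3, a secreted glutathione peroxidase, stood at 72.8 against 468 CPM, a ratio of 0.156 (0.0310 to 0.484). Its ratio was 0.394 in the other lung cells and 0.148 in the aortic cells gated alike. Crip1, a LIM domain protein, had 8 and 77 UMIs and a ratio of 0.248 (0.103 to 0.514), against 0.91 in the other lung cells. The thioredoxin inhibitor Txnip (0.303), the cholesterol exporter Abca1 (0.159) and the neonatal Fc receptor Fcgrt (0.376) had ratios of 0.887, 0.918 and 0.687 in the other lung cells. Ly6a (0.156), Ly6c1 (0.298) and Nts (0.345) rested on UMIs of 1 to 8 cells a side. In aortic gated cells the ratio was above 1 for Ly6a (24, 6.56 to 199), Nts (2.13, 1.71 to 2.67), Ly6c1 (1.91, 0.963 to 4.33) and Abca1 (1.23, 0.695 to 2.34). It was 0.666 for Crip1, 0.891 for Txnip and 0.672 for Fcgrt.

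The genes highest in the knockout were mostly general ones. Anxa1, an annexin, was 4.01-fold higher (2.20 to 7.44), with 73.3% of its 30 knockout UMIs in 1 cell. Cytoplasmic actin (Actb) was at 4708 against 2290 CPM, 2.06-fold higher (1.70 to 2.49) with 33.0% in 1 cell, and 1.95-fold without the fibroblast-marker cell. The chaperone Hspa8 was 1.83-fold (1.43 to 2.33) and the calcium-binding S100a11 1.96-fold (1.39 to 2.76) higher. Eif2s2, Ube2d3, Jun and Emp1 had ratios of 2.55, 2.09, 1.59 and 1.93. In the other lung cells the 8 genes had ratios from 0.917 to 1.53.

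No gate gene was 2-fold apart between the genotypes. Of the gate genes Mmrn1 had a ratio of 1.18 (0.966 to 1.44), Reln 0.839 (0.550 to 1.25), Prox1 1.38 (0.688 to 2.66), Flt4 0.712 (0.383 to 1.25) and Fxyd6 0.884 (0.627 to 1.23). Ccl21a had 1.37 (1.30 to 1.44), or 1.23 without the fibroblast-marker cell. List counts stand beside shares of 1.17% higher and 8.74% lower over all 767 genes. None of the 4 lymphatic transcription factors with enough UMIs was 2-fold apart, which is near those shares and is no result about them. Of 8 surface genes only Pdpn was 2-fold apart, 2.03-fold higher (1.11 to 3.65). Gja1 was 2.07-fold higher (1.16 to 3.64). Without the fibroblast-marker cell neither was 2-fold apart, at 1.88 for Pdpn and 1.85 for Gja1. Of 9 secreted genes Ptx3 (0.497, 0.202 to 1.07) and Nts (0.385, 0.203 to 0.678) were lower. Of 7 MHC class I genes H2-Q7 was higher (2.04, 0.912 to 4.47), with a ratio of 2.10 in the other lung cells. Of 16 immediate early genes Btg2, Zfp36 and Socs3 were lower, with ratios of 0.414, 0.356 and 0.374. Without the same cell H2-Q7 (1.83) and Zfp36 (0.531) also lost the 2-fold difference. The median log2 ratio was 0.29 for the transcription factors, 0.25 for the surface genes and -0.25 for the secreted genes, against -0.04 over all 767 genes.

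**Figure D4:**
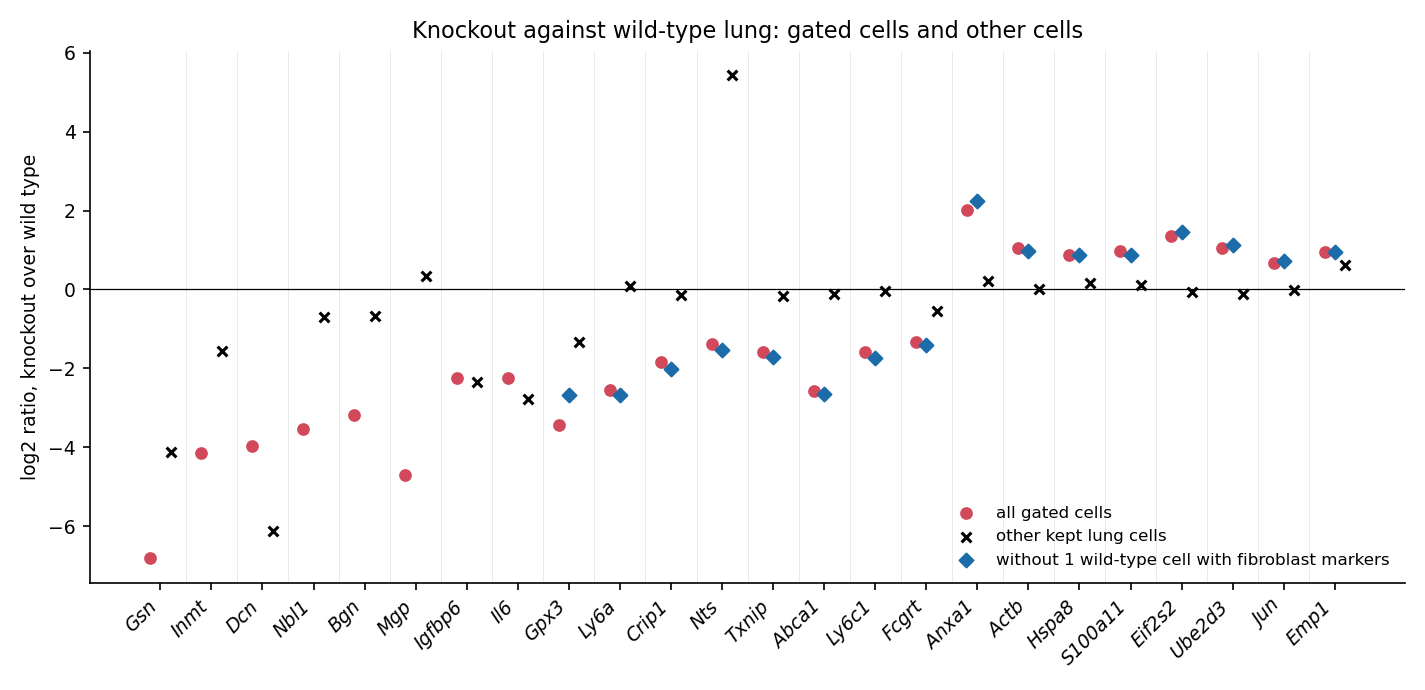
Log2 ratio of knockout over wild type for the named genes in all gated lung cells (red circles), without the 1 wild-type cell with fibroblast markers (blue diamonds) and in the other kept lung cells (crosses). The first 8 genes lie far below 0 with that cell included; none of them had 30 UMIs left without it, so they have no diamond.

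Lung lymphatic cells were next set against aortic cells that met the same gate, 41 in the wild-type and 198 in the knockout library (10.1% and 12.6% of kept aortic cells). Of these, 7 and 51 held only 2 of the 6 gate genes. Fxyd6 had a UMI in 87 of 363 and 455 of 1371 other aortic cells. In other lung cells it was in 8 of 731 and 2 of 489. Among the 7, cells of 3097, 3956, 4757, 4833 and 5909 UMIs held 1 UMI of Ccl21a or Mmrn1, and 7 to 21 of Pecam1. Those of 813 and 1150 UMIs held 1 and 0 of Pecam1. The aortic sums are called lymphatic by the gate alone. The 4 sums were compared with edgeR's quasi-likelihood test with genotype as a block, which leaves 1 residual degree of freedom. Of 1898 genes tested, 5 were higher in the lung (0.263%) and 13 lower (0.685%), together 0.948%, at a false discovery rate (FDR, Benjamini-Hochberg) under 0.05. At an unadjusted p under 0.05 there were 269 genes. Without the genotype block 8 were higher and 10 lower. The counts shifted with nearly every setting, from 0 to 23 higher and from 2 to 40 lower when all 4 libraries were kept. The number of settings each named gene passed, of up to 13, is given with it. A setting in which the gene was not tested or had no FDR is left out of its total. Of the 13 settings, 4 left out 1 library and had no genotype block.

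Pgf was the gene with the largest rise in the lung. It stood at 191 and 340 CPM in wild-type and knockout lung cells, and at 10.2 and 24.3 CPM in the aortic ones, a log2 difference of 3.87 (SE 0.511, edgeR FDR 0.029). It stayed past the threshold in 9 of 13 settings and lost it without the knockout lung (FDR 0.0616). The water channel Aqp1 was at 2262 and 2184 CPM against 511 and 698 CPM (log2 1.93, SE 0.221, edgeR FDR 0.0163) and stayed past the threshold in 12 of 13 settings. Cd36 (log2 2.39), the selenium carrier Selenop (1.26) and the immediate early factor Junb (1.22) were also higher, in 7, 9 and 6 of 13 settings. Aqp1 and Cd36 were at 1710 and 1952 CPM, and at 2315 and 2154 CPM, in the other wild-type and knockout lung cells.

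Cytl1, a secreted cytokine-like protein, was lower in the lung by the widest margin. Lung lymphatic cells held no UMI of it, while aortic ones stood at 6104 and 3612 CPM, at least 203-fold lower in the lung against a floor of 3 UMIs over both lung sums (edgeR FDR 0.00033, DESeq2 0.35). Cytl1 passed in 11 of 12 settings. Bmp4, a bone morphogenetic protein, also had no UMI in the lung, was at least 12.4-fold lower and passed in 9 of 11. Clusterin (Clu) was at 54.5 and 48.5 CPM against 1493 and 1707 CPM (log2 -4.82, SE 0.322, edgeR FDR 0.00153), past the threshold in 12 of 12 settings. Tmem158, the adhesion molecule Vcam1, the heparin-binding Ptn, the carboxypeptidase Cpe, Apod, Crip1 and the protease inhibitor Serpine2 had log2 differences from -3.47 to -2.01. Ptn, Cpe and Crip1 passed in 11 of 13 settings, Tmem158 in 9 of 11, Serpine2 in 9 of 13, Apod in 8 of 13 and Vcam1 in 7 of 12. Cpe shrank to -0.62 (edgeR FDR 0.756) when cells needed 3 gate genes. Outside the naming rule, and picked after their values were seen, the remaining genes of the 13 were Tm4sf1, Igfbp5 and Lyve1.

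Lyve1 was at 1154 and 922 CPM in lung lymphatic cells and at 3333 and 1925 CPM in aortic ones (log2 -1.27, SE 0.193, edgeR FDR 0.0429). All 4 libraries put it above the other cells, but the other cells were at 571 and 631 CPM in the lung and at 19.1 and 15.3 CPM in the aorta. Several of the genes lower in the lung were abundant in other aortic cells: Cytl1 stood there at 15462 and 13027 CPM, Clu at 4711 and 6657 CPM, and Tm4sf1 at 6166 and 6730 CPM. The part that free RNA of those cells plays in the aortic lymphatic sums was not tested in this comparison. The part of gated aortic cells with only 2 gate genes was not tested either, beyond the setting that required 3.

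**Figure D5:**
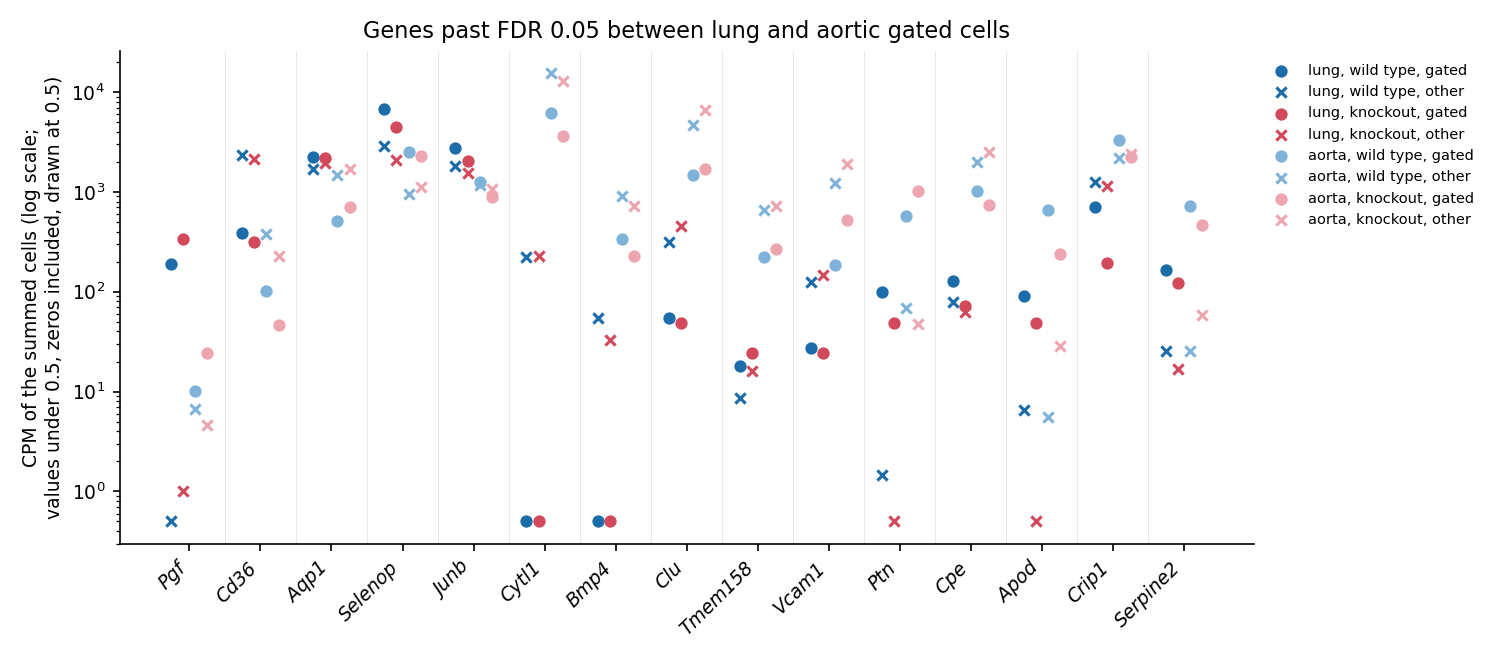
Level in CPM (log scale, 0 drawn at 0.5) of the 15 named genes in gated (circles) and other (crosses) cells of the 4 libraries. Both lung circles lie on 1 side of both aortic circles for every gene, with Cytl1 and Bmp4 at 0 in the lung.

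A further test asked whether the lymphatic difference between tissues exceeded that of the other cells from the same libraries. It used 8 sums, gated and other, with library as a block and 2 residual degrees of freedom. Of 1898 genes, the ratio of gated over other cells was higher in the lung for 161 (8.48%) and lower for 181 (9.54%). Together these were 18%, at FDR under 0.05 in edgeR, and without the library block the counts were 109 and 139. A higher ratio need not be a higher level in lung lymphatic cells. Only 2 genes were higher in both tests, Pgf and Aqp1, and 3 lower in both, Cytl1, Lyve1 and Crip1. Cpe was lower in the first and higher in this one, since the other aortic cells exceeded the other lung cells by still more. For Clu (log2 -0.99, SE 0.403, edgeR FDR 0.163), Vcam1, Tm4sf1, Selenop and Cd36 the difference did not pass the threshold.

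Tbx1 showed how this test reads both sides of the comparison. It was at 336 and 413 CPM in lung and 174 and 146 CPM in aortic lymphatic cells, which alone did not pass the threshold (log2 1.28, SE 0.300, edgeR FDR 0.117). Other aortic cells held 75.1 and 63.7 CPM, and other lung cells 1.45 and 2 CPM, so the interaction was 6.4 on the log2 scale (SE 0.611, edgeR FDR 1.48e-06). Bok and Mall also had positive interactions, with 0 to 2 CPM in other lung cells and fitted values that depend on the prior count. Mall itself was lower in lung lymphatic cells, at 81.8 and 48.5 CPM, than in aortic ones, at 286 and 172 CPM. Mt2, a metallothionein, was at 1081 and 194 CPM in lung lymphatic cells against 40.9 and 93.1 CPM in aortic ones. Its interaction of 6.37 went to 5.65 without the fibroblast-marker cell and to 4.91 with Ccl21a out of the gate. On the low side, Tmem100 (log2 -6.70, edgeR FDR 7.98e-09) and the proton carrier Ucp2 (-4.86, 4.76e-07) were set apart by the other lung cells. Ucp2 was at 200 and 146 CPM in lung and 204 and 140 CPM in aortic lymphatic cells, and at 693 and 575 CPM in other lung against 13.5 and 22.9 CPM in other aortic cells.

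Gene lists were counted in both tests, whose genes were filtered on gated sums alone. The interaction called 8.48% of all genes higher and 9.54% lower, and its list counts stand beside these shares. In the blood endothelial list 12 of 18 genes were lower and 1 higher in the interaction. When lymphatic sums were compared directly, 0 were lower and 1 higher. That test called 0.685% of all genes lower, so the 0 is near its share and is no result about the list. Kdr shows how the other cells enter the interaction. It was at 436 and 291 CPM in lung and 378 and 263 CPM in aortic lymphatic cells. In the other cells it was at 418 and 437 CPM against 42.6 and 38.2 CPM. Of 12 matrix genes tested 7 were higher and 1 lower in the interaction, and 2 of the 7, Bgn and Mgp, rest in the wild-type lung on the cell with fibroblast markers. Among lymphatic transcription factors Tbx1 was the 1 of 5 higher in the interaction, and of 10 secreted genes Fgl2, Itih5 and Sema3d were higher and none was lower. The direct comparison called none of these 15 genes, which is near the 0.948% it called of all genes and is no result about them.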

How the data were processed

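The deposited matrices hold UMI counts, whole numbers by gene and barcode. Per the submitters' processing notes, Cell Ranger and mm10 were used; the sources used here name neither the version nor the annotation. Each of the 4 matrices had 31053 rows. Lung Ensembl identifiers (31011 matched, 42 not) and aortic symbols (30532 matched, 485 not, 111 through RefSeq aliases) were mapped to GENCODE M21, which gave 30629 symbols in all 4. Depth was 1034161, 4483756, 1506574 and 1052504 UMIs (aorta of wild type and knockout, then lung in the same order), with 45, 54, 25 and 21 barcodes left out by the filters. Any pair of libraries shared at most 2 barcodes. Scrublet (scanpy 1.11.5, 0.8% per 1000 barcodes) called 3, 4, 10 and 7 doublets, of which 0, 1, 0 and 1 were gated; they were kept in the main values. No free RNA was removed.

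UMIs were summed per library over gated and over other kept cells. Gated against other compared genes with 30 or more UMIs and a mean of at least 50 CPM; knockout against wild type needed 30 UMIs. Ratios have exact conditional, levels exact Poisson and shares exact Clopper-Pearson 95% intervals. Without a count, 3 UMIs served as floor. Tissue tests used edgeR 4.0.16 (R 4.3.3) with TMM and filterByExpr; DESeq2 1.42.0 was an alternative. The aorta and lung of a genotype came from the same mice, per the labels' protocols, so genotype or library served as the block. The gate genes, Ptprc and the Ccl21 copies were left out of the tested genes. The intervals were tested on counts simulated from the model they assume, which checks the calculation only. The tissue fit was also run on simulated counts. With 200 genes changed, it called 49 of 89 tested 3-fold changes and 1 of 86 tested 1.5-fold changes the right way with 1 false call (61 of 80, 6 of 78 and 3 for the interaction). Unchanged genes had the same share in every simulated sum, and all genes had 1 dispersion. The real sums differ more, so these counts do not give the error of the real fits.

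Named genes were the 15 highest and 10 lowest (gated against other) and the 8 highest and 8 lowest (genotype) by the interval bound nearest to 1, without haemoglobin, ribosomal, mitochondrial and unnamed genes. By tissue they were the 10 highest and 10 lowest, and in the interaction the 6 highest and 6 lowest, past FDR 0.05 with no overlap of the 2 tissues. The members, the 34 gene lists and the naming rule were chosen with earlier results of these data known. One named gene is not reported here. Alternatives varied the gate, filters, scaling, tool, block and libraries.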

Additional observations from a re-analysis of the deposited data

Results flagged for a closer look

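The following genes each had a gap between gated and other cells that differed between lung and aorta in the edgeR interaction test on 8 sums (FDR under 0.05); values are log2 differences, lung minus aorta. The ratio of gated over other cells was higher in the lung for Pgf (6.75), Tbx1 (6.4), Mt2 (6.37), Bok (6.20) and Mall (6.07). It was lower for Cytl1 (-9.14), Tmem100 (-6.70), Lyve1 (-6.38), the endothelin receptor Ednrb (-6.37), the matrix protein hemicentin Hmcn1 (-5.74) and Ucp2 (-4.86). The value for Cytl1 depends on the prior count and is no measured size, as both gated lung sums held 0 UMIs. A floor of 3 UMIs over both lung sums is 19.8 CPM, against 223 and 226 CPM in other lung cells. In the aorta gated cells stood at 6104 and 3612 CPM, against 15462 and 13027 CPM in the others. Pgf no longer passed the edgeR threshold without the wild-type aorta (FDR 0.151), nor Bok without the knockout aorta (0.0555), nor Mall (0.0951) and Cytl1 (0.103) without the wild-type lung.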

How the results depend on the processing

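Gated against other gave 122 higher and 199 lower genes at a minimum of 100 CPM. Knockout against wild type gave 40 lower with at least 3 gate genes, 16 higher and 40 lower with Ccl21a out of the gate, 18 higher by the mean of per-cell CPM, 2 higher and 25 lower at 60 UMIs, and 43 lower without the fibroblast-marker cell, an alternative added after seeing the data. Gsn went to log2 ratios of 0.23, 0.10 and 0.26 with at least 3 gate genes, without Ccl21a and without that cell. It had 2 knockout UMIs in the main gate, and 598 of its 602 wild-type UMIs lay in that cell. Too few were left to read a reversal.

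Lung against aortic gated cells gave 1 higher and 6 lower with at least 3 gate genes, 1 and 6 with called doublets removed, 13 higher with cells of at least 1000 UMIs, 23 and 32 without Ccl21a, 6 lower with DESeq2, 0 and 2 with DESeq2 size factors, 17 and 40 with no filter, and 8 higher with no replicate block. Of the named genes Junb (FDR 0.0612), Vcam1 (0.0639), Apod (0.142), Crip1 (0.0544) and Serpine2 (0.0639) lost the threshold without the block. Leaving out 1 library in turn gave 23 to 75 higher and 34 to 57 lower; the fit then has no genotype block, and the lone library of a tissue is taken to vary like the others. The interaction gave 93 higher and 91 lower with DESeq2, and 70 to 133 and 111 to 172 with 1 library left out. The cause of these shifts was not tested. Depth is 1 limit: 3 UMIs are 27.3 CPM in gated wild-type and 72.8 CPM in gated knockout lung cells.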
